A study of Rattus norvegicus with 24 samples.

Results

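The small heat shock proteins are chaperones that hold damaged or stretched proteins in a soluble state without using ATP, and skeletal muscle expresses many of them. Bag3 is a co-chaperone that joins Hspb8 and other small heat shock proteins to Hsp70 and to a ubiquitin ligase, and the resulting complex removes mechanically damaged filamin at the Z-disc by chaperone-assisted selective autophagy. Several of these genes are known targets of heat shock factor 1, the transcription factor of the heat shock response. The 8 genes described here are Hspb1, Hspb2, Hspb3, Hspb6, Hspb7, Hspb8, Cryab (αB-crystallin) and Bag3. They were chosen by name as the transcript rows that carry these symbols, out of 15273 gene symbols in the table, and each had 1 transcript. All 8 passed the filter on low values, among 11196 genes tested.

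The muscle was the tibialis anterior of 12 adult male Wistar rats. The left muscle was trained by daily bouts of high-load contractions driven by an implanted nerve stimulator and the right, contralateral muscle of the same rat was not stimulated. Groups held 3 rats each at 2, 10, 20 and 30 days of training, so every contralateral muscle came from an animal that had exercised its other leg. Muscles were taken soon after the last bout, so a value in trained muscle includes the response to that bout. The trained group of each day (n = 3) was compared with all 12 contralateral muscles, and each trained muscle was also compared with the contralateral muscle of its own rat.

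The table is labelled as DESeq2-normalised counts, but its values were not whole, summed to 1 total in every sample and were read here as TPM-type transcript levels, scaled for transcript length. They were divided here by a median-of-ratios factor of 0.778 to 1.14. They keep no sequencing depth, so the precision that depth gives is unknown. The defining myofibre markers were present in every library, with a summed level of 70171 to 119652 for the 10 of 11 listed genes in the table. Mitochondrial transcripts made up 28.1% to 44.25% of the values in contralateral muscle, with a median of 31.3%. The 44.25% was that of 1 muscle, replicate 1 at 30 days, and the next highest was 35.05%. In trained muscle they made up 23.7% to 36.0% at 2, 10 and 20 days and 40.4% to 44.6% at 30 days. Their part in the 30-day results was not tested.

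The stretch of DNA upstream of 6 of the genes was available from RefSeq (build GRCr8), for 250 bases before the annotated start. Heat shock factors bind repeats of nGAAn in alternating direction, so the stretches were searched on both strands for the 2-unit elements GAANNTTC and TTCNNGAA. Hspb1, Hspb6, Hspb8 and Bag3 held at least 1 match, and Hspb3 and Hspb7 held none, while 13.5% of 33469 promoters of the same length held either element. The 4 genes shared the same 8 bases, GAAGTTTC, which were present in 1.22% of all promoters and were singled out after the sequences were read. These 4 stretches are shown because they carry that shared element, and Hspb7 is shown because it had the largest rise and no match. Capitals mark the 2-unit elements, which do not overlap another in these stretches, and each sequence runs 5′ to 3′ on the strand of its gene.
Hspb1, chr12:26432302-26432551, minus strand: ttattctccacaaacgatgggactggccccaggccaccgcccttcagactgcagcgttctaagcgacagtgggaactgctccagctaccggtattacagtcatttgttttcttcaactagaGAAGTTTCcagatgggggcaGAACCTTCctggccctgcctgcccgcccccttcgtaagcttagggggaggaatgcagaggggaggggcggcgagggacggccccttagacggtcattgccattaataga
Hspb8, chr12:45837058-45837307, plus strand: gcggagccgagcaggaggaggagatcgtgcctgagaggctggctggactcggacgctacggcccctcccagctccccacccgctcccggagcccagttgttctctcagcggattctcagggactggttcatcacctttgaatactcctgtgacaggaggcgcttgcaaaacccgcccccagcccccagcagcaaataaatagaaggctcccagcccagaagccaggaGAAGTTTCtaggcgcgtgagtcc
Bag3, chr1:192533210-192533459, plus strand: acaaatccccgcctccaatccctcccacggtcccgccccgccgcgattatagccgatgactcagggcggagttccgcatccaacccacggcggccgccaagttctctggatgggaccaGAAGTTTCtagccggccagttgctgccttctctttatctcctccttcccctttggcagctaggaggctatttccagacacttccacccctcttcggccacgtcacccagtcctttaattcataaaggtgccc
Hspb6, chr1:94934122-94934371, plus strand: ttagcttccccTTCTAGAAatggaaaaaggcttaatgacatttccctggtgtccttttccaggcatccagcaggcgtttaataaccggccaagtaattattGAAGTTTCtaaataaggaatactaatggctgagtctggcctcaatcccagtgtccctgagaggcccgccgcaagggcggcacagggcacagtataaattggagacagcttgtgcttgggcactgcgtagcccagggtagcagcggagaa
Hspb7, chr5:159010509-159010758, plus strand: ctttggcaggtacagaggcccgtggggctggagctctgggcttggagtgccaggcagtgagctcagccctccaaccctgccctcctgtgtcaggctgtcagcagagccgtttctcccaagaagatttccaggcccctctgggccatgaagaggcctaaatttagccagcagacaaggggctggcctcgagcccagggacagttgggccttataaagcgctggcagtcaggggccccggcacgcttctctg

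Counted from the start, with -1 as the last base before it, GAAGTTTC began at -129 in Hspb1, -132 in Bag3, -149 in Hspb6 and -23 in Hspb8. Hspb1 held a further GAANNTTC match at -109 and Hspb6 a TTCNNGAA match at -239. The 3-unit heat shock element, GAANNTTC followed by NNGAA, or its reverse complement, each of which contains both 2-unit elements, was found in 0 of the 6 stretches and in 0.663% of all promoters. A TATAAA match was present in Hspb3, Hspb6 and Hspb7 and in 12.9% of all promoters. The AP-1 element TGANTCA was found in Bag3 alone (6.34% of all promoters), and CACGTG (5.59%) and TGACGTCA (1.59%) were found in none of the 6. A match describes letters in a window and is not a bound site.

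In contralateral muscle the pool was led by Hspb6 and Cryab. Levels were 560 ± 79.3 for Hspb6, 519 ± 87.4 for Cryab, 204 ± 17.7 for Hspb8, 172 ± 42.8 for Hspb1, 113 ± 25.7 for Hspb7, 57.0 ± 6.37 for Bag3, 43.0 ± 3.19 for Hspb3 and 27.0 ± 4.27 for Hspb2 (length-scaled level, mean ± SD, n = 12). Neighbours in this order overlapped in their ranges, except that every Cryab value lay above every Hspb8 value, every Hspb7 value above every Bag3 value and every Bag3 value above every Hspb3 value. The 4 contralateral groups did not differ for any of the 8 genes by a limma F test (0 of 8 at an adjusted p under 0.05, against 0.0666% of all genes called). At an unadjusted p under 0.05 there was 1 of 8, beside 1153 of 10517 genes in that test. The 1 of 8 was Hspb1, with adjusted p = 0.373, and its contralateral means ran from 140 ± 29.7 at 20 days to 222 ± 47.3 at 10 days (SD, n = 3).

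Most of these transcripts were higher in trained muscle from the first time point. At 2 days 7 of 8 rose in trained muscle by limma at an adjusted p under 0.05, where 15.4% of all genes tested were called higher. At 10 days 7 of 8 rose (15.6% of all genes), at 20 days 7 of 8 (11.7%) and at 30 days 5 of 8 (11.1%), and 0 of 8 were called lower at any day, where 13.5%, 13.3%, 9.64% and 9.46% of all genes were called lower at 2, 10, 20 and 30 days. The median log2 change over the 8 genes was 1.56, 1.52, 0.82 and 0.55 at 2, 10, 20 and 30 days, beside -0.01, -0.03, -0.03 and -0.01 over all genes tested. Taking the 12 rats in turn, the trained muscle was above the animal's own contralateral muscle in 12 of 12 for Hspb1, Hspb6, Hspb7, Hspb8, Cryab and Bag3, a pattern found in 8.45% of all genes. Hspb3 was higher in 11 of 12 and Hspb2 in 9 of 12. All 3 trained muscles lay above all 12 contralateral muscles for 6 of 8 genes at 2 days (8.57% of all genes), 7 of 8 at 10 days (10%), 6 of 8 at 20 days (8.23%) and 5 of 8 at 30 days (7.48%). These are whole-muscle libraries, in which more RNA per fibre and more cells of a type that holds the RNA cannot be told apart.

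**Figure D1:**
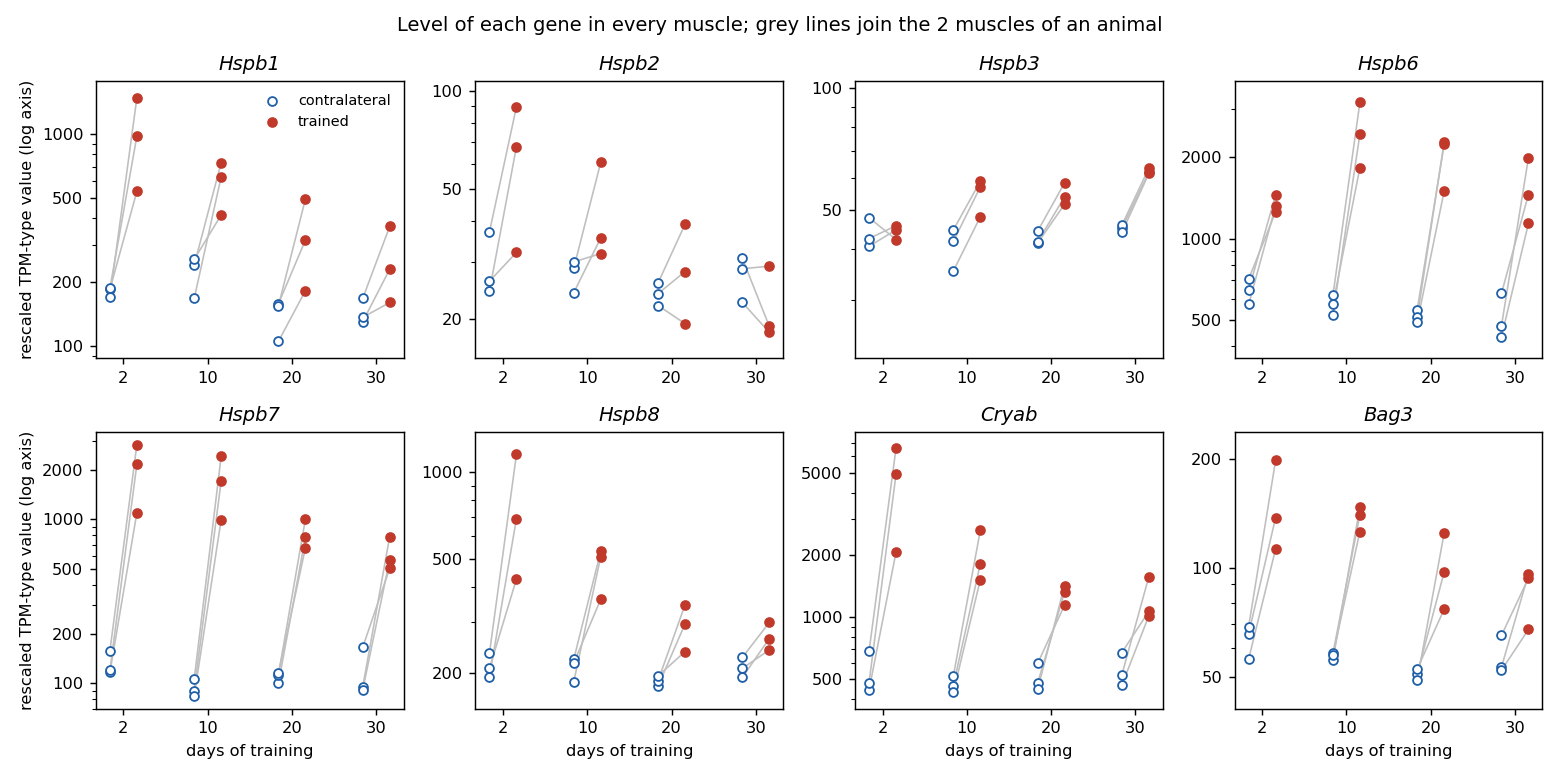
Level of each of the 8 genes (rescaled TPM-type value, log axis) in all 24 muscles by day of training, with open circles for contralateral and filled circles for trained muscle and a grey line joining the 2 muscles of a rat. Trained muscle lies above its own contralateral muscle in 12 of 12 rats for 6 genes, and for Hspb2 the lines turn from upward at 2 days to level or downward at 30 days.

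Hspb7, a cardiovascular and muscle small heat shock protein that binds filamin C, had the largest rise of the group. Its contralateral level had a lowest value of 83.7, a median of 109 and a highest value of 166. The trained muscles measured 1096, 2858 and 2170 at 2 days, then 1715, 2421 and 996 after 10 days, 776, 1005 and 670 after 20 days and 503, 785 and 568 after 30 days. All 12 trained values lay above all 12 contralateral values, and the values at 20 and 30 days were mostly below those at 2 and 10 days. The log2 change was 4.09 (95% interval 3.58 to 4.60, 17.0-fold) at 2 days, 3.85 (14.4-fold) at 10 days, 2.86 (7.24-fold) at 20 days and 2.45 (5.46-fold) at 30 days, with an adjusted p of 1.6e-07 or less at each day (limma). Ranked by rise among all genes tested, falling genes not counted, it was 10th at 2 and at 10 days, 16th at 20 days and 18th at 30 days.

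Cryab, which encodes the αB-crystallin chaperone of desmin and other sarcomeric filaments, had the highest level of the 8 genes in trained muscle at 2 days. Its 12 contralateral values ran from 432 to 685 with a median of 481. In trained muscle it measured 2064, 6583 and 4913 at 2 days, then 1810, 2627 and 1518 after 10 days, 1324, 1422 and 1144 after 20 days and 1068, 1571 and 1016 after 30 days. Again no trained value fell within the contralateral range, and the lowest trained value at 2 days was within the range of those at 10 days. The log2 change was 2.98 (SE 0.22, 7.90-fold) at 2 days, 1.91 (3.77-fold) at 10 days, 1.33 (2.52-fold) at 20 days and 1.22 (2.33-fold) at 30 days, with an adjusted p of 0.00039 at the weakest of these (limma).

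Hspb1, the Hsp27 chaperone that associates with actin filaments, ranged from 106 to 257 in contralateral muscle with a median of 168. Its trained values were 536, 1476 and 975 at 2 days, then 627, 731 and 415 after 10 days, 317, 494 and 183 after 20 days and 231, 367 and 161 after 30 days. The groups separated at 2 and 10 days and overlapped at 20 and 30 days, when 2 and 1 of the 3 trained muscles were above every contralateral muscle. By limma the log2 change was 2.45 (SE 0.29, 5.45-fold, adjusted p = 7.4e-07) at 2 days and 1.77 (3.42-fold, adjusted p = 4.5e-05) at 10 days. The rise at 20 days, 0.86 with adjusted p = 0.0325 by limma, was 1.15 with adjusted p = 0.0137 with the animal as a block, and all 3 rats were higher in trained muscle (1.73-, 1.99- and 3.17-fold). Without replicate 2 it was 0.52 with adjusted p = 0.305, and without replicate 1 it was 0.84 with adjusted p = 0.108. At 30 days the value was 0.51 (95% interval -0.08 to 1.10, adjusted p = 0.221).

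Hspb8 and Bag3, the partners of the chaperone-assisted selective autophagy complex, both rose at 2 and 10 days. For Hspb8, contralateral values ran from 180 to 235 with a median of 201, and trained values were 425, 1156 and 691 at 2 days, then 508, 531 and 361 after 10 days, 296, 345 and 237 after 20 days and 263, 300 and 240 after 30 days. For Bag3, contralateral values ran from 49.0 to 68.8 with a median of 55.8, and trained values were 138, 198 and 113 at 2 days, then 147, 140 and 126 after 10 days, 97.4, 125 and 76.9 after 20 days and 93.6, 96.0 and 67.6 after 30 days. Every trained value of Hspb8 lay above its contralateral range, as did every value of Bag3 except that of 1 muscle at 30 days. Hspb8 rose by 1.77 on the log2 scale (SE 0.18, 3.41-fold) at 2 days and 1.17 (2.25-fold) at 10 days, and Bag3 by 1.34 (SE 0.15, 2.54-fold) at 2 days, 1.26 (2.40-fold) at 10 days, 0.78 (1.71-fold) at 20 days and 0.57 (1.48-fold) at 30 days, where the adjusted p was 0.0065 (limma). The Bag3 change at 30 days was 0.35 (adjusted p = 0.071) on the values as deposited, 0.58 (0.0503) against time-matched controls, 0.50 (0.0521) without replicate 1 and 0.48 (0.0678) without replicate 2, and with the animal as a block it was 0.58 and kept the call (0.029). For Hspb8 the value at 20 days was 0.51 with adjusted p = 0.043, which became 0.0501 with the animal as a block and 0.24 without replicate 2 (0.38). In all, 15 of 24 alternatives ended that call, and at 30 days it was 0.39 with adjusted p = 0.123.

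The ratio of Hspb8 to Bag3 was 3.61 ± 0.363 in the 12 contralateral muscles. In trained muscle it was 5.02 ± 1.68, 3.37 ± 0.466, 2.97 ± 0.173 and 3.17 ± 0.375 after 2, 10, 20 and 30 days (SD, n = 3). It was higher in trained than in own contralateral muscle in 3 of 12 rats, and the mean log2 difference of -0.04 ± 0.43 (SD) did not pass an exact two-sided sign-flip permutation test over rats (p = 0.767). That test pooled the 4 days, which moved in unlike directions, so it cannot show a constant ratio. At 2 days the trained ratios were 3.09, 5.84 and 6.13, against 3.16, 3.41 and 3.47 in own contralateral muscle. At 20 and 30 days the ratio was lower in the trained muscle of every rat. Single days were not tested.

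Hspb6, the Hsp20 protein that is phosphorylated by cyclic-nucleotide-dependent kinases, followed another time course. Its contralateral values ran from 433 to 708 with a median of 558. Trained muscles measured 1319, 1254 and 1451 at 2 days, then 2432, 3186 and 1827 after 10 days, 2229, 2271 and 1497 after 20 days and 1454, 1990 and 1138 after 30 days. All trained values lay above the contralateral range, and all 3 values at 10 days lay above all 3 at 2 days. The log2 change was 1.27 (SE 0.16, 2.41-fold) at 2 days, 2.12 (4.35-fold) at 10 days, 1.82 (3.54-fold) at 20 days and 1.42 (2.68-fold) at 30 days, each with an adjusted p of 3.1e-06 or less (limma). In the annotation the files use (Rnor_6.0, chromosome 1, 89008117 to 89010257, plus strand) the gene ends where Lin37 on the minus strand ends, and how the authors' counting treated strand is not given in the sources used here.

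Hspb2 and Hspb3 encode a pair of muscle small heat shock proteins that form a complex with each other, and their levels in trained muscle had opposite slopes from 2 to 30 days. Hspb2 ranged from 22.0 to 37.1 in contralateral muscle with a median of 26.0, and measured 32.0, 89.5 and 67.6 at 2 days, then 35.5, 60.5 and 31.8 after 10 days, 28.0, 39.1 and 19.4 after 20 days and 29.1, 18.2 and 19.0 after 30 days. Hspb3 ranged from 35.3 to 47.9 with a median of 43.3, and measured 44.7, 42.3 and 45.7 at 2 days, then 58.9, 57.0 and 48.1 after 10 days, 58.4, 51.7 and 53.9 after 20 days and 62.0, 63.5 and 61.6 after 30 days. Hspb2 was thus above the contralateral range in 2 of 3 muscles at 2 days and below it in 2 of 3 at 30 days, whereas Hspb3 was within it at 2 days and above it in all 9 muscles afterwards. For Hspb2 only the rise at 2 days passed the limma test (1.09, SE 0.23, 2.13-fold, adjusted p = 0.00086). The other values were 0.60 at 10 days (adjusted p = 0.0533), 0.05 at 20 days (0.908) and -0.29 at 30 days (0.399). At 10 days the adjusted p of Hspb2 was 0.0214 on the values as deposited, 0.106 with the animal as a block and 0.226 against time-matched controls (limma). In 18 of 24 alternatives it stayed without a call on that day. For Hspb3 the value at 2 days was 0.04 (95% interval -0.13 to 0.21, adjusted p = 0.729), and it rose by 0.34 at 10 days (adjusted p = 0.0030), 0.34 at 20 days (0.0038) and 0.53 at 30 days (6.2e-05). On the values as deposited, the median change of all genes at 30 days was -0.18, against -0.01 after the rescaling. Hspb3 stood at 0.31 on that day as deposited, with adjusted p = 0.0164 (limma).

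**Figure D2:**
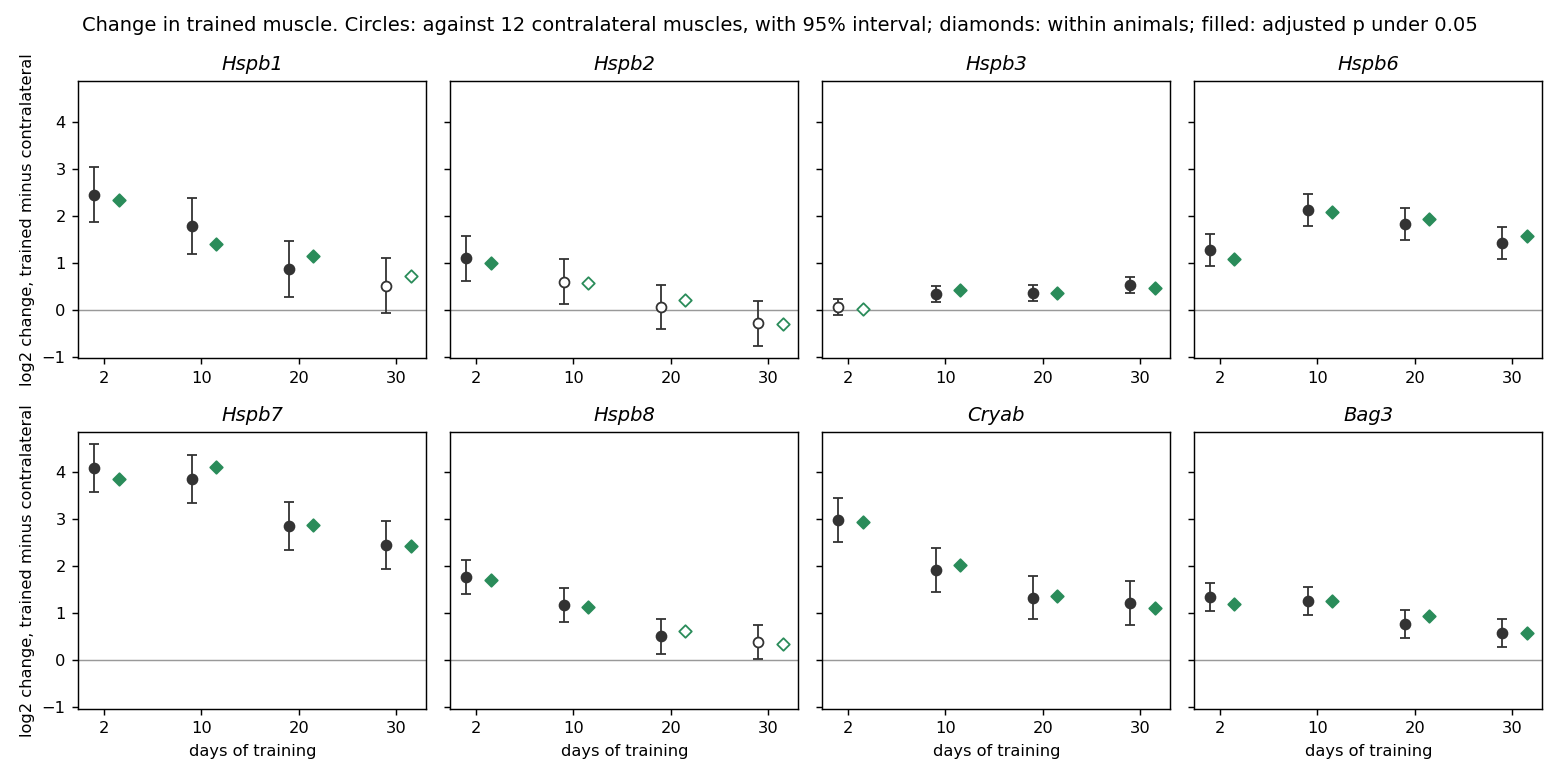
Log2 change of each gene in trained against contralateral muscle by day of training. Circles give the comparison with all 12 contralateral muscles with its 95% interval, diamonds the comparison within rats, and filled symbols an adjusted p under 0.05 (limma). Against the 12 contralateral muscles, 6 genes lie highest at 2 days, Hspb6 at 10 days and Hspb3 at 30 days.

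Hspb2 and Cryab lie head to head on chromosome 8 (Rnor_6.0), with Hspb2 at 55176847 to 55177819 on the minus strand and Cryab at 55178289 to 55182546 on the plus strand, so that 470 bases separate their starts. The ratio of Cryab to Hspb2 was 19.5 ± 3.66 in the 12 contralateral muscles, with a range of 14.4 to 27.1. In trained muscle it was 70.2 ± 5.03, 47.4 ± 3.81, 47.6 ± 11.3 and 58.8 ± 25.2 after 2, 10, 20 and 30 days (SD, n = 3). The lowest of the 12 trained ratios, 36.4, was above the highest contralateral one, and the ratio rose in 12 of 12 rats by a mean of 1.50 ± 0.43 on the log2 scale. The exact two-sided sign-flip permutation test over rats gave p = 0.000488, the smallest that 12 pairs can give, for 1 of 2 ratios tested, both picked after the values were seen. A ratio shows that the neighbouring genes changed by unequal amounts and not which of them moved.

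**Figure D3:**
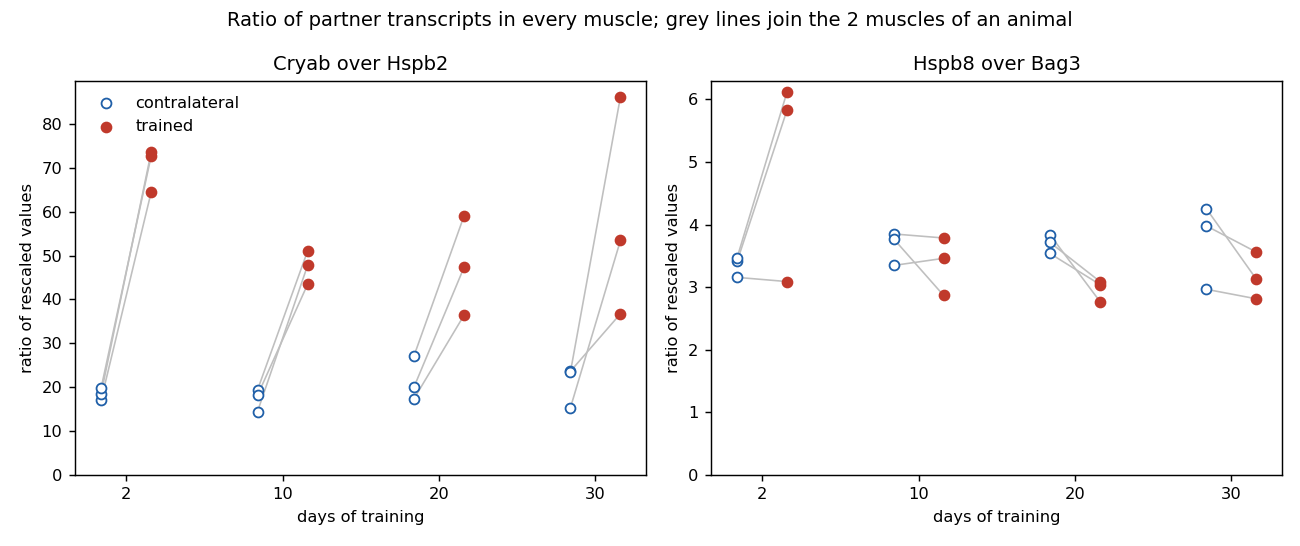
Ratio of Cryab to Hspb2 and of Hspb8 to Bag3 (rescaled values) in all 24 muscles by day of training, with open circles for contralateral and filled circles for trained muscle and grey lines joining the 2 muscles of a rat. Cryab over Hspb2 lies between 14.4 and 27.1 in contralateral and at 36.4 or above in trained muscle, while the Hspb8 over Bag3 ratios of the groups overlap.

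Added up, the 7 small heat shock transcripts measured 1638 ± 180 in contralateral muscle (SD, n = 12). After 2, 10, 20 and 30 days of training the sum was 9763 ± 4000, 7332 ± 2213, 4820 ± 929.8 and 3970 ± 996 (SD, n = 3), and the lowest trained sum, 3204, lay above the highest contralateral one, 2041. Each gene's share of the sum was then taken. Hspb7 supplied 6.84% ± 1.02 of it in contralateral muscle and 20.7% ± 0.741, 22.7% ± 3.17, 17.0% ± 1.33 and 15.7% ± 1.92 after 2, 10, 20 and 30 days. Cryab supplied 31.6% ± 3.44 in contralateral muscle, 44.7% ± 6.31 at 2 days and 27.2% ± 2.01 at 10 days, and Hspb6 34.1% ± 2.26 in contralateral muscle, 15.8% ± 7.45 at 2 days and 41.3% ± 2.63 at 20 days. Hspb8 made up 12.6% ± 1.24 in contralateral muscle and between 6.09% and 7.66% on average in the trained groups. These shares are descriptions without a test.

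**Figure D4:**
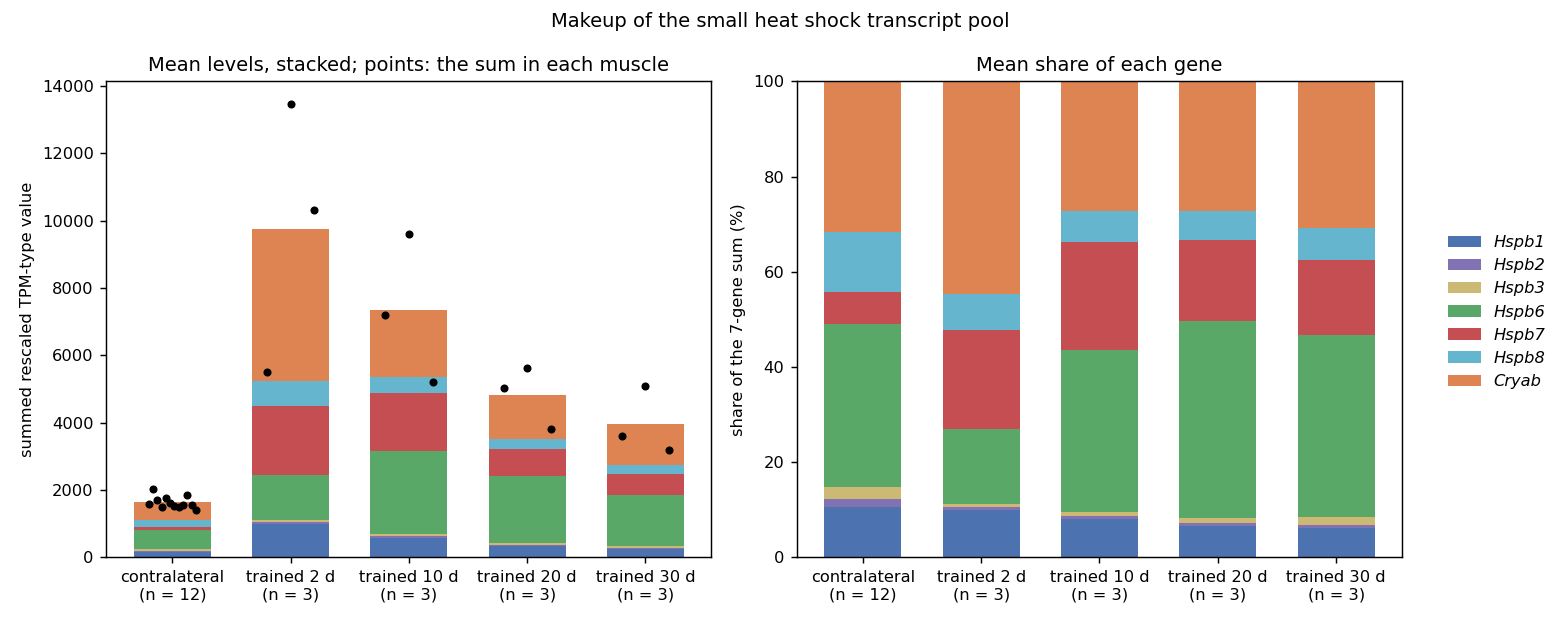
Mean level of the 7 small heat shock transcripts stacked by gene (left, rescaled TPM-type value, points giving the sum in each muscle) and the mean share of each gene in the sum (right, percent) in the contralateral group (n = 12) and the trained groups (n = 3). The mean sum is 9763 at 2 days and 3970 at 30 days, beside 1638 in the contralateral group, and the red Hspb7 band is wider in each trained group than in the contralateral group.

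The trained groups were next compared with each other. All were taken after a bout, so a changed response to the bout and a lasting change with training cannot be told apart. Between 2 and 30 days 6 of 8 genes were lower (7.91% of all genes called lower) and 1, Hspb3, was higher (7.07% called higher) by limma. Hspb1 fell by 1.94 on the log2 scale, Cryab fell by 1.76, Hspb7 fell by 1.64, Hspb8 and Hspb2 each fell by 1.38 and Bag3 fell by 0.77, with adjusted p-values from 0.00025 to 0.0060. Hspb3 rose by 0.49 (adjusted p = 0.0027), and the value of Hspb6 was 0.15 (95% interval -0.28 to 0.58, adjusted p = 0.677). With the animal as a block, which compares the within-rat changes, 3 of 8 passed: Cryab (-1.82, adjusted p = 0.0124), Hspb8 (-1.36, 0.0283) and Hspb1 (-1.61, 0.0494). The blocked values of the others had adjusted p = 0.0508 for Hspb2, 0.0567 for Hspb7, 0.111 for Hspb3 and 0.145 for Bag3, against 1.46% of all genes called lower and 1.35% higher in that fit. On the values as deposited, the Hspb3 change was 0.15 with adjusted p = 0.346, and without replicate 2 at 2 days the Bag3 change had adjusted p = 0.0734.

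Successive time points mostly could not be separated. From 2 to 10 days Hspb6 rose by 0.85 (SE 0.21, adjusted p = 0.0326 by limma, 1.08% of all genes called higher), but with the animal as a block adjusted p = 0.161 and 0 of 8 were called (4 at an unadjusted p under 0.05; 0.0447% of all genes called higher), and leaving out 1 of the 6 trained muscles ended the call in 4 of 6 cases, namely replicates 2 (adjusted p = 0.143) and 3 (0.0796) at 2 days and replicates 1 (0.104) and 2 (0.139) at 10 days. The change of Cryab over the same interval was -1.07 (adjusted p = 0.0502), and without replicate 1 at 2 days, which had the lowest level of 5 of the 8 genes in its group, it was -1.56 with adjusted p = 0.00043, while that of Hspb8 was -0.96 with adjusted p = 0.0059. From 10 to 20 days 0 of 8 were called, with 4 at an unadjusted p under 0.05, and from 20 to 30 days 0 of 8 were called, with 0 at an unadjusted p under 0.05 (limma). Over the first of these intervals 0.0357% of all genes were called higher and 0.134% lower, and over the second 0.00893% and 0.0268%. Hspb7 had the largest value from 10 to 20 days, -0.99 with adjusted p = 0.224, and -1.34 with adjusted p = 0.0408 without replicate 3 at 10 days.

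At 2 days the 3 rats stood far apart for several genes. Replicate 2 had the highest level of 6 of the 8 genes and replicate 3 of the other two, and the largest Cryab value was 6583 against a smallest of 2064. The within-rat change of Hspb1 ran from 2.89-fold in replicate 1 to 8.64-fold in replicate 2. Over all 12 rats the within-rat fold had a median of 9.15 for Hspb7 (3.03 to 23.0), 3.34 for Cryab (1.58 to 10.2), 3.13 for Hspb6 (1.77 to 5.17), 2.53 for Hspb1 (1.18 to 8.64), 2.05 for Bag3 (1.30 to 2.88) and 1.75 for Hspb8 (1.16 to 4.93). Averaged over the 4 days, 7 of 8 genes rose (19.9% of all genes called higher), and Hspb2, at 0.36, had adjusted p = 0.0504 without and 0.0213 with the animal as a block, where 8 of 8 rose (21.2% of all genes).

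Other genes of the pathway were taken from lists drawn up by role, with earlier results of these data known. Among heat shock factors and the chaperone genes they induce, 17 of 18 listed were tested, and 5, 5, 4 and 5 were called higher at the 4 successive time points, with 1, 1, 2 and 1 called lower (limma). Over all genes 15.4%, 15.6%, 11.7% and 11.1% were called higher and 13.5%, 13.3%, 9.64% and 9.46% lower at these days. With the animal as a block 5, 5, 4 and 4 were called higher and 1, 2, 0 and 1 lower, where 11.8%, 12.1%, 9.94% and 7.21% of all genes were called higher and 9.8%, 8%, 7.42% and 5.09% lower. Hspa1b, an inducible Hsp70, rose by 4.62, 4.73, 3.93 and 3.55 on the log2 scale at 2, 10, 20 and 30 days. Hsp90aa1, the inducible cytosolic Hsp90, rose by 1.68, 1.55, 0.89 and 0.95. Hsf1 itself had values of -0.06, -0.15, -0.27 and -0.35, none of which passed the test. Hsf2 rose by 0.78 at 2 days (adjusted p = 2.0e-05) and by 0.50 at 10 days (0.0021) by limma. It passed with the animal as a block on both days (0.00047 and 0.0138), and at 20 days was at 0.28 (adjusted p = 0.0925 by limma). Fkbp4, an Hsp90 co-chaperone, fell by 0.65 at 2 days and by 0.67 at 10 days. At 20 days the genes called lower were Hspa1l (-0.60, adjusted p = 0.0044) and Fkbp4 (-0.30, 0.0269) by limma. With the animal as a block neither passed on that day (adjusted p = 0.0536 and 0.148). The median over the list was 0.13, 0.02, -0.05 and 0.04.

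Partners of chaperone-assisted selective autophagy were all tested, and 4, 4, 2 and 2 of 14 were called higher at the 4 successive time points, with 0 called lower by limma. Over all genes 15.4%, 15.6%, 11.7% and 11.1% were called higher and 13.5%, 13.3%, 9.64% and 9.46% lower. At 20 and 30 days the share of partners called higher was thus near that of all genes. The partners that rose at all 4 days were the Hsp40 co-chaperones Dnajb1 (3.14, 2.25, 1.97 and 1.49 on the log2 scale) and Dnajb4 (0.99, 1.05, 0.50 and 0.63). At 2 days Sqstm1 (0.53, adjusted p = 0.00064) and Wipi1 (0.64, 0.0013) were also called higher by limma, and with the animal as a block (0.0157 and 0.0021). Wipi1 was called higher at 10 days too (0.51, adjusted p = 0.0074 by limma, and 0.0025 with the block). Stub1, the ubiquitin ligase of the complex, had values of 0.05, -0.05, -0.01 and -0.16, and the row labelled Hspa8, its constitutive Hsp70, had a contralateral mean of 0.556. With the animal as a block 4, 3, 2 and 2 partners were called higher, and 2 were called lower at 2 days and 1 at 20 days. Over all genes that fit called 11.8%, 12.1%, 9.94% and 7.21% higher and 9.8%, 8%, 7.42% and 5.09% lower. The 1 of 14 called lower at 20 days was thus near the share of all genes. The partners called lower at 2 days were Map1lc3a (-0.63, adjusted p = 0.0125) and Map1lc3b (-0.61, 0.0121). At 20 days it was Tsc1 (-0.80, 0.0424). Without the block their adjusted p-values were 0.0912, 0.0613 and 0.208 (limma). Of the other small heat shock and BAG family genes, 5 of 9 listed were tested, and Bag2 at 2 days rose (0.59), with 0 called at the later days by limma. With the animal as a block Hspb11 was also called higher at 20 days (0.68, adjusted p = 0.0498, against 0.25 and 0.423 without the block).

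Client proteins of the Z-disc and the intermediate filaments were called higher in 11, 11, 10 and 7 of 19 tested genes at 2, 10, 20 and 30 days, and lower in 2, 2, 3 and 1 (limma), and with the animal as a block higher in 9, 11, 9 and 7 and lower in 1, 1, 2 and 1. Of all genes tested 15.4%, 15.6%, 11.7% and 11.1% were called higher and 13.5%, 13.3%, 9.64% and 9.46% lower at these days. With the block these shares were 11.8%, 12.1%, 9.94% and 7.21% higher and 9.8%, 8%, 7.42% and 5.09% lower. Flnc, the filamin that this pathway turns over, rose by 2.66, 2.03, 1.09 and 0.93 on the log2 scale. The actin-binding Xirp1 rose by 4.30, 4.15, 3.39 and 2.94 and Fhl1, a titin-binding LIM protein, by 2.50, 2.35, 1.83 and 1.80. Actn3, the α-actinin of fast fibres, fell by 0.74, 1.44, 1.84 and 2.18. Des, which encodes desmin, the filament held by αB-crystallin, rose by 0.90, 0.98 and 0.59 at the first 3 time points and was at 0.35 at 30 days, without passing the test. The median over the list was 0.55, 0.87, 0.42 and 0.36.

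**Figure D5:**
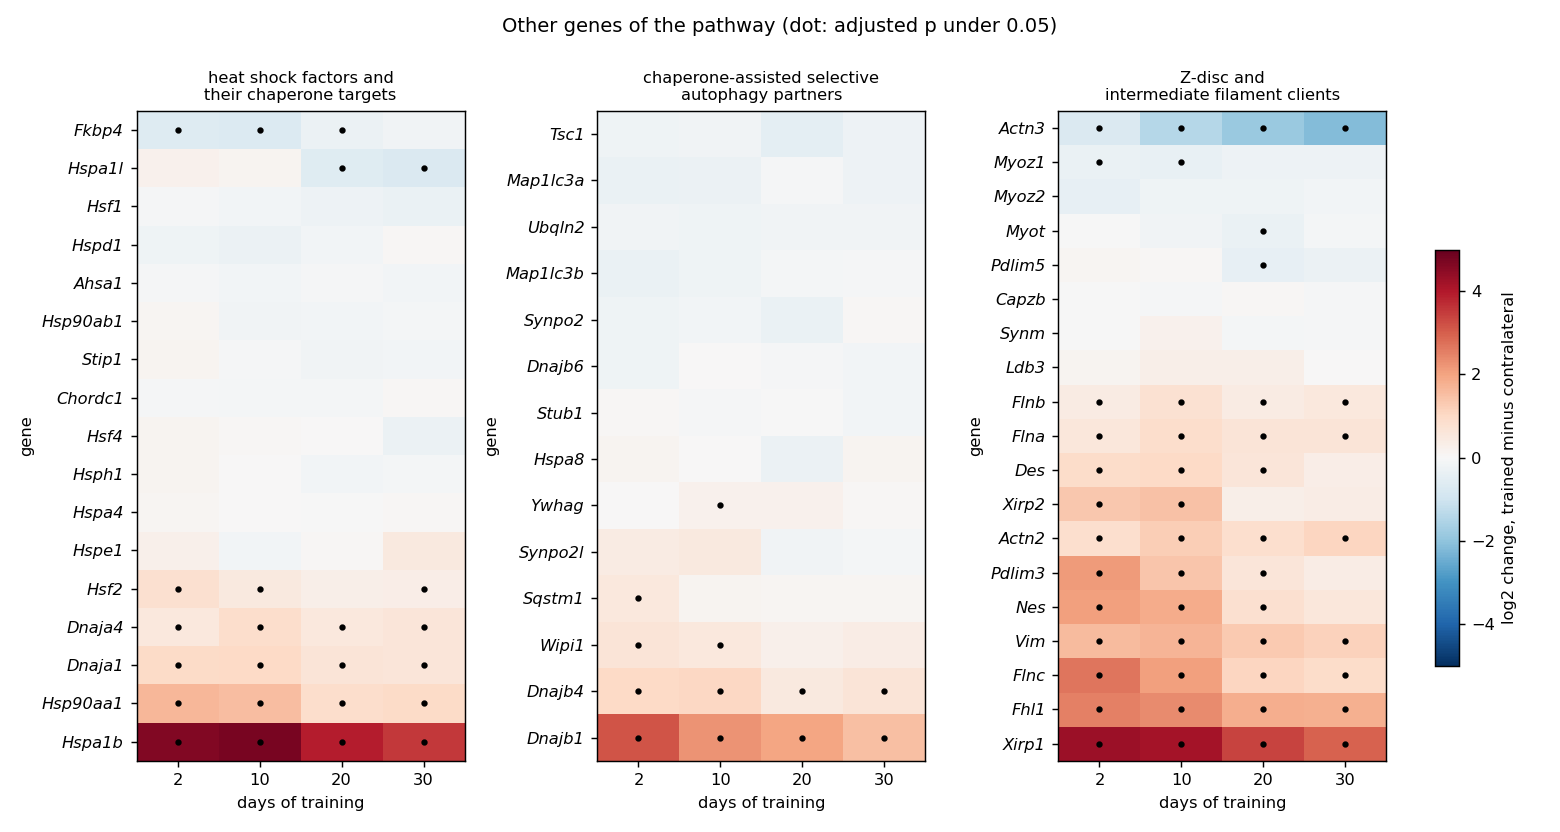
Log2 change in trained against contralateral muscle (colour, n = 3 against 12) for the tested genes of 3 lists, genes in rows and days of training in columns, with a dot where the adjusted p was under 0.05 (limma). Hspa1b, Dnajb1 and Xirp1 stand at the red end of their lists with a dot at every day, and Actn3 at the blue end.

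For each gene the 2 others with the most similar profile over the 24 muscles were sought among 3833 genes with a mean of at least 10. Hspb7 was nearest to Mustn1 (Pearson r = 0.990), a small nuclear muscle protein, and to Fhl1 (0.984). Hspb8 was nearest to Pvr (0.985) and Pdlim3 (0.985), and Bag3 to Hbegf (0.972), a growth factor, and Mfge8 (0.960). Cryab was nearest to Cd63 (0.970) and to the lamin gene Lmna (0.968), and Hspb1 to Lmna (0.946) and Flnc (0.946). Hspb6 went with Hmox1 (0.953), haem oxygenase 1, and Btg2 (0.952), Hspb3 with Gpx3 (0.904) and Mgst3 (0.896), both of peroxide and glutathione metabolism, and Hspb2 with Pacsin3 (0.920) and Klc1 (0.917). These r values describe 24 points that share animals and scaling and include the difference between trained and contralateral muscle. In the 12 contralateral muscles alone the r of these 16 pairs was between 0.255 and 0.797.

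Markers of other cell types moved with the same comparisons. The counts below stand beside the shares of all genes tested that were called at 2, 10, 20 and 30 days. Those shares were 15.4%, 15.6%, 11.7% and 11.1% higher and 13.5%, 13.3%, 9.64% and 9.46% lower (limma). Under the animal block they were 11.8%, 12.1%, 9.94% and 7.21% higher and 9.8%, 8%, 7.42% and 5.09% lower. Macrophage markers were called higher in 7, 8, 9 and 9 of 9 genes at 2, 10, 20 and 30 days, with a summed level of 18.3 to 42.7 in contralateral and 55.0 to 168 in trained muscle, and Cd68 was at 0 in some library. Fibroblast markers rose in 5, 6, 6 and 6 of 6 tested genes, with a summed level of 77.5 to 262 in contralateral and 309 to 999.7 in trained muscle, and no tested marker was at 0. Col1a2 and the endothelial marker Pecam1 were not analysed here. With the animal as a block the macrophage counts were 9, 8, 9 and 9 of 9 and the fibroblast counts 6, 6, 5 and 4 of 6. Slow fibre markers summed to 1409 to 2863 in contralateral muscle and 779 to 2372 in trained muscle. Of these markers 4, 1, 0 and 0 of 10 were called lower and 1, 1, 0 and 0 higher at the 4 days (limma), but with the animal as a block 0, 0, 1 and 0 were lower and 1, 1, 0 and 0 higher. Myofibre markers were called lower in 4, 5, 5 and 5 of 10 genes and higher in 0, 2, 0 and 0, and with the block lower in 2, 5, 3 and 3 and higher in 0. Of the endothelial markers 0, 2, 3 and 3 of 6 were called higher and 1 lower at 2 days, and with the block 0, 2, 2 and 2 higher and 0 lower. Smooth muscle and pericyte markers were called higher in 3, 3, 2 and 1 of 7 genes and lower in 1 at 2 days, and with the block higher in 0, 3, 2 and 2 and lower in 0. Satellite cell markers were called higher in 2, 2, 1 and 1 of 4 genes and lower in 1 at 2 days, and with the block higher in 1, 2, 1 and 2 and lower in 1 at 2 days. Of 5 Schwann cell markers 1 was called higher at 2 days and 2 lower at 30 days, and with the block 1 higher at 10 and at 30 days. Erythrocyte markers were called in 0 of 5 genes at each day, with and without the block. The part of these cells in the results above was not tested.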

How the data were processed

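RNA from 24 tibialis anterior libraries (12 rats, both legs) was poly-A selected and sequenced as paired ends. Alignment by the authors used STAR within Partek Flow and the Rnor_6.0 genome. The authors deposited values per Ensembl transcript under a DESeq2 label, which were read here as TPM-type since they scale with length and sum to 634431 in each sample. They also deposited a gene-level signal table (4635 genes), whose values by inspection follow gene span, used here as an alternative. The authors' own p-values, false discovery rates, ratios and fold changes were not used. Neither table holds counts, so depth per sample and the precision it gives are unknown.

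Values of the 20027 transcripts were divided by median-of-ratios factors (16230 transcripts above 0 in all samples) and summed per gene symbol. Genes reaching 1 in 3 or more samples (11196) were fitted as log2(value + 1) with limma 3.58.1 in R 4.3.3. The fit had 5 groups, the 12 contralateral muscles and 3 trained muscles a day, with Benjamini-Hochberg adjustment over all genes and a threshold of 0.05. Fold changes on this scale understate the change of low genes. A limma F test over 10517 genes compared the contralateral groups, and an exact sign-flip permutation test over rats the ratios. In the main fit p-values measure the spread between muscles of a group, each from another rat, and the pairing of muscles was not used. With the animal as a block, and in the sign-flip test, they measure the spread of the within-rat differences. The 2 muscles of a rat share the animal, and their deviations from the group means had a median r of 0.174 (0.0277 to 0.343), against 0.00835 between animals, so results with the animal as a block are given where they change a call. The fit was tested on simulated data. Of 276 library pairs 0 were identical.

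Upstream sequences came from RefSeq for GRCr8, in which 6 of the 8 genes had an entry. The 8 genes and the gene lists were chosen with earlier results of these data known. From each list the 2 largest called changes in each direction at a day and Hsf1 could be named, with the 2 most similar profiles for each of the 8 genes. Stub1, Hspa8, Sqstm1, Wipi1, Hsf2, Map1lc3a, Map1lc3b, Tsc1, Flnc and Des were named after their values were seen. Alternatives were the values as deposited, another pseudocount, no filter or a mean of at least 10, time-matched controls, the animal block, 1 transcript per gene, an intensity trend, the signal table and leaving out each library.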

Additional observations from a re-analysis of the deposited data

Results flagged for a closer look

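The trained groups differed between 2 and 30 days for 7 of the 8 genes when the difference itself was tested with limma. Over all genes tested, 7.07% were called higher and 7.91% lower by that test. The log2 change from 2 to 30 days was -1.94 for Hspb1, -1.38 for Hspb2, 0.49 for Hspb3, -1.64 for Hspb7, -1.38 for Hspb8, -1.76 for Cryab and -0.77 for Bag3. The differences of the within-rat changes were -1.61 for Hspb1, -1.30 for Hspb2, 0.44 for Hspb3, -1.44 for Hspb7, -1.36 for Hspb8, -1.82 for Cryab and -0.61 for Bag3, so each kept its direction, and 3 of the 7 passed the threshold there. In that fit 1.35% of all genes were called higher and 1.46% lower. The mitochondrial share, which was 25.3% to 28.8% in trained muscle at 2 days and 40.4% to 44.6% at 30 days, moved with the same comparison, and its part was not tested.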

How the results depend on the processing

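Over all comparisons of the 8 genes and their alternatives, 1420 values kept their side of the threshold, and 32 lost and 28 gained a call. Direction was reversed in 0 cases where either fit had a call. Among values without a call in both fits the sign could change. Hspb7 from 2 to 10 days, for example, was -0.24, and 0.25 with the animal as a block. Of the 32 lost calls 15 were Hspb8 at 20 days. The counts against contralateral muscle were 7 at 2 days in every setting, 7 to 8 at 10 days, 5 to 7 at 20 days and 4 to 5 at 30 days. From 2 to 10 days, where 1 gene was called, 2 were called on the values as deposited, 2 with a mean of at least 10, 2 with an intensity trend, 3 in the gene-level signal table and 0 with the replicate block, and leaving out 1 library gave 0 to 3. From 10 to 20 days leaving out 1 library gave 0 to 1. From 2 to 30 days the replicate block gave 3 in place of 7, and leaving out 1 library 6 to 7. Against the 12 contralateral muscles the block ended the call of Hspb8 at 20 days and added that of Hspb2 in the mean over days, and changed no other call there. The cause of these changes was not tested.

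Counts over all genes moved more. At 2, 10, 20 and 30 days 3235, 3240, 2393 and 2304 genes passed, against 1654, 1420, 1064 and 1155 with a mean of at least 10 and 1779, 1367, 1061 and 1295 in the signal table, both of which test fewer genes. Time-matched controls gave 2007, 1589 and 1121 at the last 3 time points, and the block 1377 at 30 days. Without trained replicate 2 at 2 days 1492 passed, without replicate 1 at 10 days 2130, and without replicate 2 or 3 at 30 days 1469 or 1491. The mean over days had 4500, against 1796 with a mean of at least 10 and 1941 in the signal table. From 2 to 30 days 1677 became 314 with the block, 3294 as deposited, and 715, 1065 and 1101 without replicates 2 and 3 at 2 days and replicate 3 at 30 days. From 2 to 10 days 216 became 7 with the block and 66 to 484 without 1 library, from 10 to 20 days 19 became 1 to 93, and from 20 to 30 days 4 became 0 to 9. On the values as deposited the calls that were higher made up 74.5% and not 53.4% at 2 days, 75.4% and not 53.9% at 10 days, 20.0% and not 54.0% at 30 days, and 7.59% and not 47.2% from 2 to 30 days. They were 3 of 43 and not 4 of 19 from 10 to 20 days, and 0 of 9 and not 1 of 4 from 20 to 30 days. Without counts, edgeR and DESeq2 were not run, and what depth limits is unknown.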
